A study of Mus musculus with 6 samples.

Results

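The troponin and tropomyosin genes that make the calcium switch of the skeletal muscle thin filament were followed in quadriceps RNA of mice with a model of spinal and bulbar muscular atrophy. The members were the 10 genes Tnni1, Tnni2, Tnnt1, Tnnt2, Tnnt3, Tnnc1, Tnnc2, Tpm1, Tpm2 and Tpm3, a set defined by gene name. Non-control probes whose transcript record in the array design matched 1 of these genes in a mouse annotation were taken, which gave 22 of the 56605 probes of the array. All 22 passed the filter on dim probes, which asked for a signal well above background on 3 arrays or more. Each gene is described by the probe with the highest mean, and the other probes are given beside it.

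The 6 arrays came from 6 male AR97Q mice at 9 weeks of age, which carry a transgene of the human androgen receptor with an expanded CAG repeat on a C57BL/6J background. Both groups carried this transgene, and the promoter that drives it is not given in the sources used here. The 3 mice of the exercise group had been run on a motor-driven wheel at low to moderate speed through the presymptomatic weeks and were killed the day after the last run, and the 3 sedentary mice had not been trained. The comparison asks how training altered the transcripts of muscle in mice that carry the transgene, and mice without it were not analysed here.

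In striated muscle, calcium binds to troponin C, which releases the hold of troponin I on actin, while troponin T ties the complex to tropomyosin, the rod that covers the myosin sites of the actin filament. Slow and fast fibres use different genes for each subunit: Tnni1, Tnnt1 and Tnnc1 in slow fibres and Tnni2, Tnnt3 and Tnnc2 in fast fibres. Tnnt2 encodes the troponin T of the heart, which skeletal muscle also makes before birth, and Tnnc1 is shared by the heart and slow fibres. Tpm1 encodes the alpha tropomyosin of fast fibres and heart, Tpm2 the beta form, and Tpm3 the gamma form of slow fibres together with forms made in cells outside muscle.

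All values are log2 of the processed array signal after the 75th percentile of that array was subtracted, so that 0 is the 75th percentile of the probes and a difference of 1 is a doubling. The signal of a probe depends on its sequence, so the level of one gene was not compared with that of another, and sums over a marker list weight its brighter probes more. Groups were compared with limma over 25005 genes and transcripts, and a gene was called where the Benjamini-Hochberg adjusted p was under 0.05. The 75th percentile itself was 251 to 257 signal units on the exercise arrays and 310 to 384 on the sedentary arrays, so the scaling bears on every change given for a single gene. Signals were well above background for 54.6% to 59.9% of probes, and arrays correlated with each other at 0.979 to 0.993 over genes. No spot was saturated, and the brightest member probe reached 47.5% of the scanner's ceiling. The skeletal muscle markers Ckm, Acta1, Mb, Des, Ttn and Neb were all detected. By the array position in the scanner files, the array of sedentary mouse 1 was in the same strip of the slide as those of the exercise mice, and the other two sedentary arrays in a second strip. What the strip means for hybridization or scanning is not given in the sources used here.

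The genes of the fast isoforms and of beta tropomyosin were higher in the exercise group, by 0.52 to 1.01 on the log2 scale, while the slow troponin I gene Tnni1 was lower, by a change of -1.45 ± 0.29 (standard error, n = 3 per group). Of the 10 genes, 5 rose (Tpm1, Tpm2, Tnnt3, Tnni2 and Tnnc2) and 1 fell (Tnni1). Over all features tested, 11.5% rose and 6.12% fell, 17.6% in either direction. The slow troponin T gene Tnnt1 and the cardiac Tnnt2 were lower in every exercise mouse than in every sedentary mouse, but their adjusted p values of 0.0561 and 0.0545 did not pass (limma). The levels of Tnnc1 and Tpm3 overlapped between the groups. The 3 exercise values lay entirely above the sedentary ones for 5 genes and entirely below for 3, where 25.0% and 18.2% of all features did so, 43.2% in either direction. The median change over the 10 genes was 0.26, against 0.026 over all features. With the further demand of a log2 change of at least 1, Tpm1 and Tnni1 remained, where 1.72% of all features rose and 1.06% fell by that rule.

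**Figure D1:**
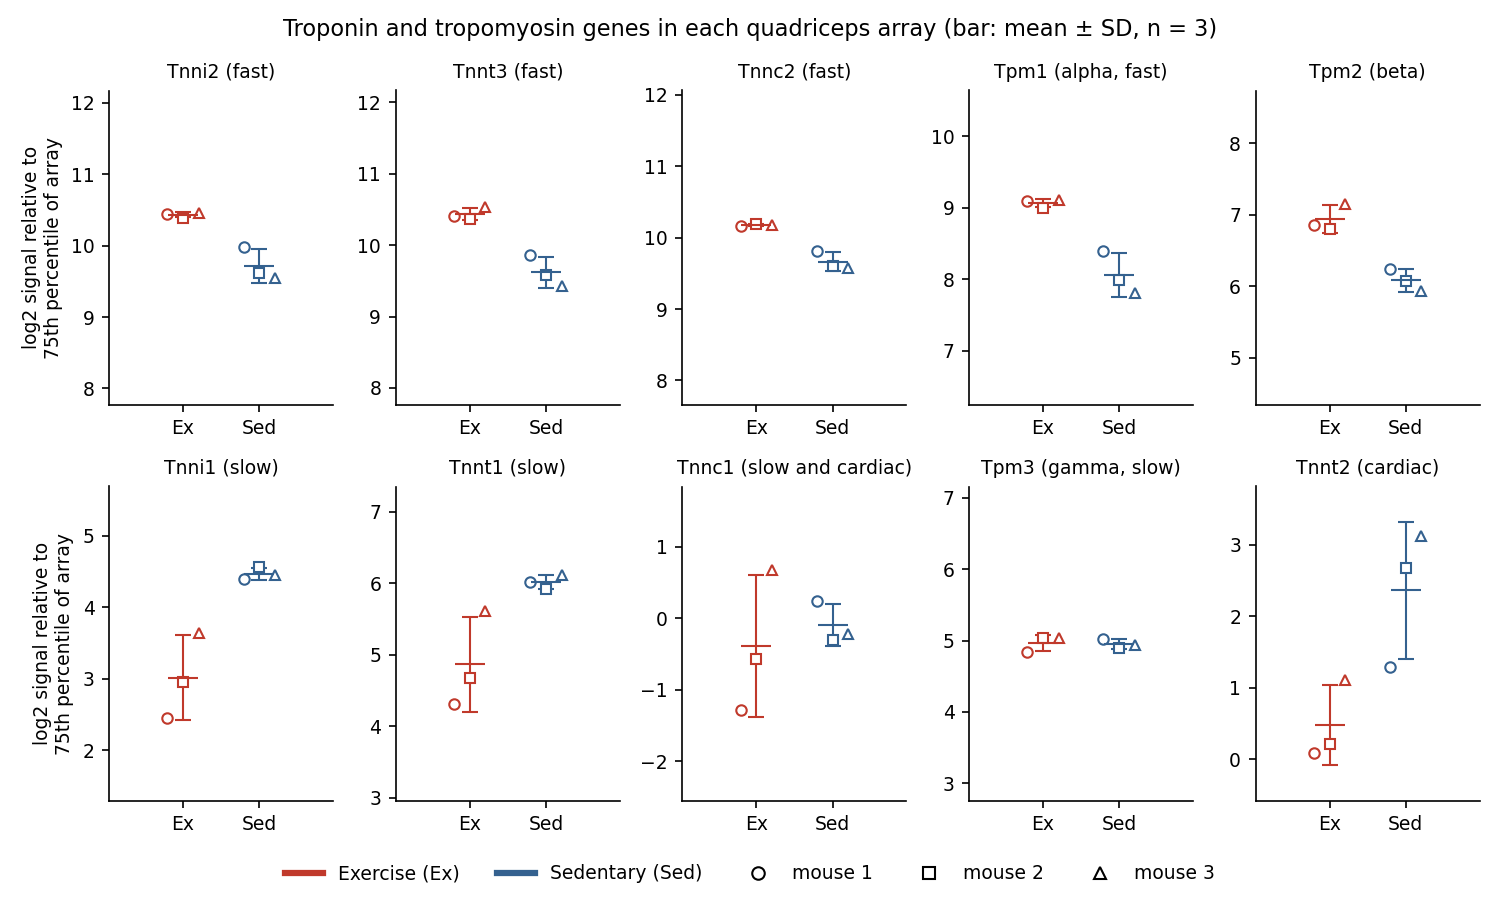
Log2 signal relative to the 75th percentile of the array for each gene in the 3 exercise (red) and 3 sedentary (blue) mice, with the mean and SD of each group. The axes start at different levels but span the same range, and the exercise values lie above all sedentary ones in the upper row and below them for Tnni1, Tnnt1 and Tnnt2.

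Promoter windows are shown for the slow and cardiac genes whose transcripts were lower in all exercise mice, for Tnnc1, whose level overlapped between groups, and for its fast partner Tnnc2. The sequences are from RefSeq on GRCm38.p6, run from 250 bases before to 50 bases after an annotated start, and are written 5′ to 3′ on the strand of the gene. The windows are chr1:135799171-135799470 on the plus strand for Tnni1, chr7:4515926-4516225 on the minus strand for Tnnt1, chr1:135836084-135836383 on the plus strand for Tnnt2, chr14:31208062-31208361 on the plus strand for Tnnc1 and chr2:164779685-164779984 on the minus strand for Tnnc2. Capitals mark the E-box, CANNTG, the binding motif of myogenic basic helix-loop-helix factors, and the M-CAT motif, CATTCC or its reverse complement GGAATG, which is bound by TEAD factors. No match of one overlapped a match of the other.
Tnni1: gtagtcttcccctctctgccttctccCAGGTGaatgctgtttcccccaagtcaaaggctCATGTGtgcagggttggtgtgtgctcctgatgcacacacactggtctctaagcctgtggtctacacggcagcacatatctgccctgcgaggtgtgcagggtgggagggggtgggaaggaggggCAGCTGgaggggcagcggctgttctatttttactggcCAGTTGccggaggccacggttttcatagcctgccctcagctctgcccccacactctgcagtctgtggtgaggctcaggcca
Tnnt1: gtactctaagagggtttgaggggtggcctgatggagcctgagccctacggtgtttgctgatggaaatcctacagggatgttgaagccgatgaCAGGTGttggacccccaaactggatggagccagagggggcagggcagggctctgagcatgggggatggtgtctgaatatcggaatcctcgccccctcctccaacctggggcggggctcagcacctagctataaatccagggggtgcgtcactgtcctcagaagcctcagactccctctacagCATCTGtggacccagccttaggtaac
Tnnt2: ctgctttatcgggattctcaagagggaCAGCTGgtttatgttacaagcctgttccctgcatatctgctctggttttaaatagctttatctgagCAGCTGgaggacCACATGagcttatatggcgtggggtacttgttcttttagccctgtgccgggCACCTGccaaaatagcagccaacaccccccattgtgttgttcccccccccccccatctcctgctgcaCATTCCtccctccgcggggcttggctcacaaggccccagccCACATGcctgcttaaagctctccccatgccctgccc
Tnnc1: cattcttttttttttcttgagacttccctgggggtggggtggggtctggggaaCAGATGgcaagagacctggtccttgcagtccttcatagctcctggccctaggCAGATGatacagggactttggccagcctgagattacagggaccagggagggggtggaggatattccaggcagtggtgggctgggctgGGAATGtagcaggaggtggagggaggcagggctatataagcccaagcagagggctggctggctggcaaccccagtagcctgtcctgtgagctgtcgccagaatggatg
Tnnc2: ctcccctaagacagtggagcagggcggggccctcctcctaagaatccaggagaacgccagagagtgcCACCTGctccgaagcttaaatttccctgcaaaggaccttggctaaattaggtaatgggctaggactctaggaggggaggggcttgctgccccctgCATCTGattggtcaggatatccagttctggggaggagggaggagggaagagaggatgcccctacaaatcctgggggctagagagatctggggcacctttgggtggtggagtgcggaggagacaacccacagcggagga

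The RefSeq table held 11 windows for 8 of the 10 genes. An E-box was found on either strand in all 11, where 72.3% of the 32851 windows of the mouse genome hold at least 1. The Tnnt2 window shown holds 5 E-boxes and the Tnni1 window shown 4, and those of Tnnt1, Tnnc1 and Tnnc2 hold 2 each. Tnnt2 and Tnni1 each have a second window at another start, not shown, which holds 2 E-boxes and no M-CAT motif. An M-CAT motif was found in 3 windows, those shown for Tnnt2 and Tnnc1 and the window of Tpm1, against 14.7% of all windows. The TATAAA motif was found in the Tnnt1 window alone among the 11, against 13.6% of all windows, and full matches to the MEF2 and CArG motifs were found in none, against 3.19% and 1.63%. These matches describe the letters of the windows and say nothing of binding. Along the chromosomes several troponin I and troponin T genes stand side by side: Tnni1 and Tnnt2 lie on chromosome 1 with 1 gene, Lad1, starting between them, Tnni2 and Tnnt3 lie on chromosome 7 with 2, Lsp1 and Prr33, and Tnnt1 neighbours the cardiac Tnni3 on chromosome 7 with 0 between.

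Troponin I holds the filament in its off state. The slow gene Tnni1 measured 2.45, 2.96 and 3.64 in the 3 exercise mice and 4.40, 4.56 and 4.45 in the sedentary mice. The groups did not overlap, and the exercise values were spread (3.02 ± 0.59, SD) where the sedentary ones were tight (4.47 ± 0.09, n = 3 each). The change of -1.45 corresponded to 0.365 times the sedentary signal, with a limma adjusted p of 0.0277 and a 95% interval of -2.15 to -0.76. A second Tnni1 probe changed by -1.26 and also passed when every probe was fitted on its own (limma adjusted p = 0.034). In that fit 8 of the 22 member probes rose and 2, both of Tnni1, fell, where 16.2% of all probes were called in either direction.

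The fast gene Tnni2 measured 10.44, 10.39 and 10.46 in the exercise mice and 9.99, 9.62 and 9.54 in the sedentary mice. All exercise values were higher, and sedentary mouse 1 was the nearest to them. The rise of 0.72 ± 0.13 (SE), or 1.64-fold, passed with a limma adjusted p of 0.0255, and the array carries 1 probe for the gene. Before scaling, the Tnni2 signals were 357290, 344890 and 353910 units in exercise and 315250, 291650 and 285690 in sedentary mice. Unscaled, the difference between the groups was 0.24 on the log2 scale.

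Troponin T anchors the complex to tropomyosin. The slow gene Tnnt1 measured 4.32, 4.67 and 5.61 in the exercise mice and 6.02, 5.92 and 6.12 in the sedentary mice. The groups did not overlap, and exercise mouse 3 was the closest to the sedentary range. The difference was -1.16 ± 0.32 (SE), with a 95% interval of -1.94 to -0.37 and a limma adjusted p of 0.0561, and a second probe gave -1.18.

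The fast gene Tnnt3 measured 10.41, 10.37 and 10.53 in exercise and 9.86, 9.58 and 9.43 in sedentary mice. The groups stood apart with a rise of 0.81 ± 0.13 (SE), 1.76-fold, and a limma adjusted p of 0.0236. Its other two probes rose by 0.95 and 0.91.

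The cardiac gene Tnnt2 measured 0.09, 0.22 and 1.11 in exercise and 1.29, 2.68 and 3.13 in sedentary mice. The values of exercise mouse 3 and sedentary mouse 1 nearly met, and sedentary mice 2 and 3 stood well above both. The difference of -1.89 ± 0.52 (SE) was the largest of the 10 genes, but its interval ran from -3.15 to -0.63 and its limma adjusted p was 0.0545. Within the strip that held both groups, against sedentary mouse 1 alone, it was -0.81. Without sedentary mouse 1, Tnnt2 changed by -2.43 with a limma adjusted p of 0.0149. Each group then lay in its own strip, so group and strip cannot be told apart in that run. With any other array left out, the limma adjusted p of Tnnt2 was 0.0731 to 0.16.

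Markers of heart muscle were measured beside Tnnt2. Of 7 cardiac markers, 4 were tested and 0 were called (limma), 1 of them, Myl4, having an unadjusted p under 0.05, and the defining genes Myl7, Ryr2 and Nkx2-5 were not well above background on any array. The summed signal of the tested cardiac markers was 6.26 to 10.98 times the 75th percentile in exercise and 11.4 to 24.7 times in sedentary mice. Myl4, the light chain of atria and of developing muscle, is in this sum. The cardiac troponin I gene Tnni3 changed by -0.41 with a limma adjusted p of 0.236.

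Troponin C is the calcium sensor. The slow and cardiac gene Tnnc1 measured -1.29, -0.57 and 0.68 in exercise and 0.25, -0.30 and -0.22 in sedentary mice. The exercise mice took both the lowest and the highest places, so the groups overlapped. The difference was -0.30 ± 0.49 (SE), with a 95% interval of -1.48 to 0.88 and a limma adjusted p of 0.685, which leaves a change as large as that of Tnnt1 within the interval. Without exercise mouse 1 the difference was 0.15.

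The fast gene Tnnc2 measured 10.17, 10.19 and 10.18 in exercise and 9.81, 9.60 and 9.57 in sedentary mice. The exercise values were nearly identical and all higher. The rise of 0.52 ± 0.10 (SE), 1.43-fold, passed with a limma adjusted p of 0.0254. Before scaling, its signals were 294960, 299830 and 290810 units in exercise and 279360, 287470 and 291910 in sedentary mice, which overlapped, and the unscaled difference was 0.04.

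Tropomyosin is the rod that troponin moves. The alpha gene Tpm1 measured 9.10, 9.00 and 9.11 in exercise and 8.40, 7.99 and 7.80 in sedentary mice. The groups stood well apart, and the rise of 1.01 ± 0.16 (SE), 2.01-fold, was the largest among the members that rose (limma adjusted p = 0.0236). Its other two probes, designed against other transcript records, gave 0.24 and 0.39 with overlapping groups and did not pass. When all 3 probes were averaged, the change of Tpm1 was 0.55 with a limma adjusted p of 0.0569.

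The beta gene Tpm2 measured 6.86, 6.80 and 7.16 in exercise and 6.25, 6.08 and 5.93 in sedentary mice. The groups did not overlap, and the rise of 0.85 ± 0.14 (SE), 1.81-fold, passed (limma adjusted p = 0.0236). A second probe rose by 1.20.

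The gamma gene Tpm3 measured 4.84, 5.03 and 5.03 in exercise and 5.03, 4.90 and 4.94 in sedentary mice. The 6 values lay within 0.20 of each other. The difference was 0.01 with a 95% interval of -0.22 to 0.24, which does not reach the size of any change that was called among the members. The other Tpm3 probes differed among themselves, as described with the mouse-to-mouse patterns. Among the probes that were well above background in both groups, 0 of the 6 genes with several probes had probes of both signs.

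**Figure D2:**
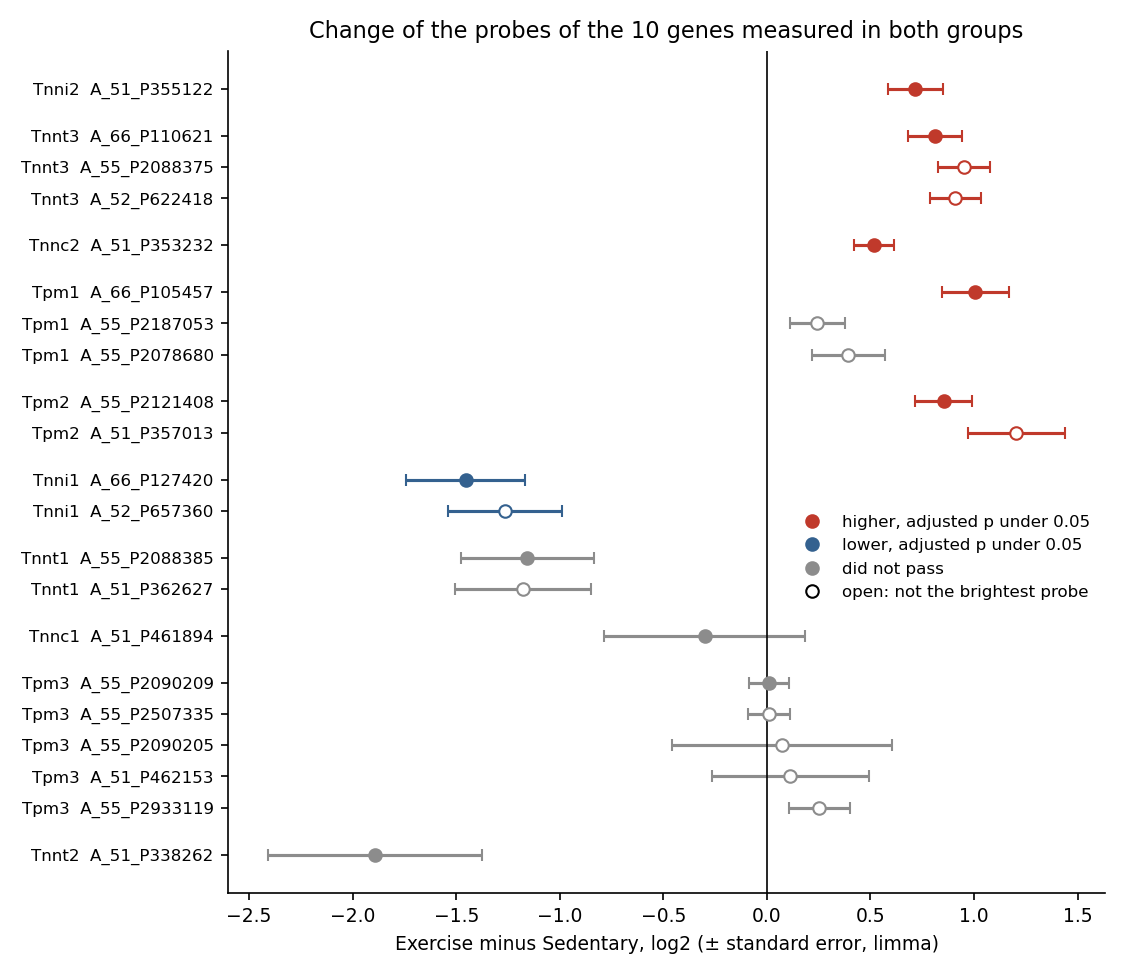
Exercise minus sedentary difference on the log2 scale, with its standard error, for each member probe that was well above background in both groups, fitted over all probes with limma. Red points rose and blue points fell at an adjusted p under 0.05, grey points did not pass, and open points are probes other than the brightest of their gene; both Tnni1 probes lie near -1.3 to -1.5 and the Tpm3 probes lie around 0.

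Bright probes as a class were higher in exercise on this scale, which bears on the members that rose. All 47 genes with a mean of at least 9 were higher in the exercise group, with a median change of 0.48, and 76.6% of them were called higher. Tnni2, Tnnt3 and Tnnc2 are among these 47, with changes of 0.72, 0.81 and 0.52. Of the 191 genes with a mean of at least 8, 187 were higher in the exercise group, with a median change of 0.45, and 61.8% of them were called higher. Tpm1, at 1.01, belongs to this class too. The general skeletal muscle markers Ckm (1.496), Mb (1.20) and Acta1 (0.93) also rose, 3 of 6 on that list with a median change of 0.61, and the changes of the 3 fast troponin genes were below each of these values, a difference that was not tested. Of the 914 genes with a mean of at least 6, which include Tpm2, 842 were higher, with a median change of 0.28. Tnnt1 was lower in exercise although 82% of the 2934 genes with a mean of at least 4, its own class, were higher.

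A difference between a fast and a slow gene taken within each array does not move with a factor that multiplies the whole array. It does move with a shift that differs between bright and dim probes. Tnni2, Tnnt3, Tnnc2 and Tpm1 lie at a mean of at least 8, and their slow partners do not, so the rise of bright probes enters these differences. How much of each change it makes up was not tested. Tnni2 minus Tnni1 was 7.99, 7.44 and 6.83 in exercise and 5.59, 5.06 and 5.09 in sedentary mice. The groups stood apart, by 2.17 on the log2 scale or 4.51-fold. The level of such a difference depends on the 2 probes and has no meaning of its own, so the change between groups alone was read.

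Tnnt3 minus Tnnt1 was 6.09, 5.70 and 4.92 in exercise and 3.83, 3.66 and 3.31 in sedentary mice. These groups also stood apart, by 1.97 or 3.91-fold, and the 6 possible probe pairs gave 1.97 to 2.13. With the brightest probe of each gene, Tpm1 minus Tpm3 was 4.26, 3.97 and 4.08 against 3.37, 3.09 and 2.86, again without overlap, a change of 1.00. With the Tpm3 probe of largest SD, A_55_P2090205, the groups overlapped, and the change was 0.93 with an exact permutation p of 0.2. Of the 15 pairs of probes measured above background in both groups, 14 were higher in exercise, over a range of -0.01 to 1.00.

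Tnnc2 minus Tnnc1 was 11.45, 10.76 and 9.50 in exercise and 9.57, 9.90 and 9.79 in sedentary mice. Exercise mouse 3 lay below all sedentary mice, and the change of 0.82 was within this spread. In an exact permutation test over the arrays (two-sided, n = 3 per group) the smallest p that the design can give is 0.1, which the troponin I, troponin T and tropomyosin pairs reached, and the troponin C pair gave 0.4. After adjustment over the 4 pairs the exact p was 0.133 for the 3 that stood apart, so none could pass 0.05 in this design. Against sedentary mouse 1, the array of the same strip, the 4 changes were 1.83, 1.73, 0.73 and 1.00 for troponin I, troponin T, tropomyosin and troponin C.

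**Figure D3:**
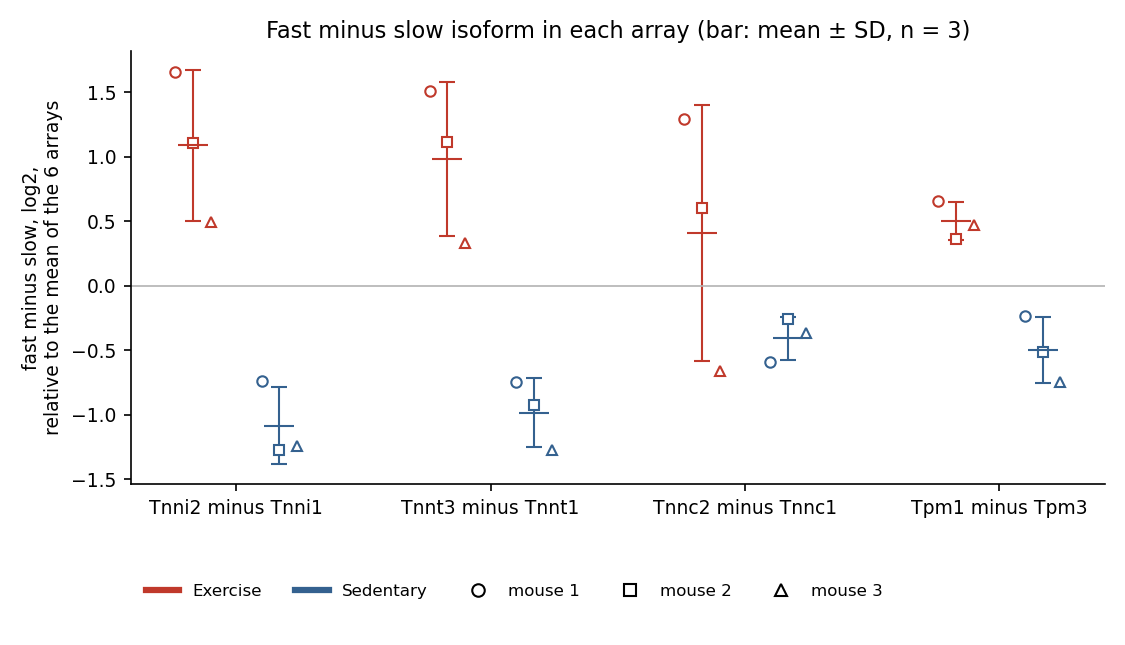
Fast minus slow difference in each array, on the log2 scale and centred on the mean of the 6 arrays, with the mean and SD of the 3 exercise (red) and 3 sedentary (blue) mice. The groups stand apart for troponin I, troponin T and tropomyosin, and exercise mouse 3 lies below the sedentary mice for troponin C while the other two exercise mice lie above them.

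The directions of single genes were read under 6 other scalings. The lower levels of Tnni1, Tnnt1 and Tnnt2 kept their sign in each, and Tnni1 was called in each. The rises of the fast genes were smaller where the arrays were not scaled, were scaled to 8 spike-in probes or were made equal by quantiles. Under quantile normalization, which equalizes the bright end of the arrays, 2 members rose, Tpm1 and Tpm2, where 7.46% of all features rose. Tnni2 then changed by 0.015, Tnnt3 by 0.13 and Tnnc2 by -0.11. Under spike-in scaling Tpm1 alone rose, by 0.46, where 1.42% of all features rose, and Tnnc2 changed by -0.032. The median of all features moved from 0.026 to -0.45 without scaling, to -0.52 with the spike-ins, to -0.13 in the deposited table and to 0.11 with the array median, and relative to that median the fast genes were higher under these 4. The fast minus slow changes cannot move under these 4, which multiply each array by 1 factor. They kept their sign under the other scalings. For troponin I, troponin T, tropomyosin and troponin C they were 1.63, 1.503, 0.73 and 0.18 under quantile normalization and 2.16, 1.97, 1.03 and 0.65 with normexp.

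**Figure D4:**
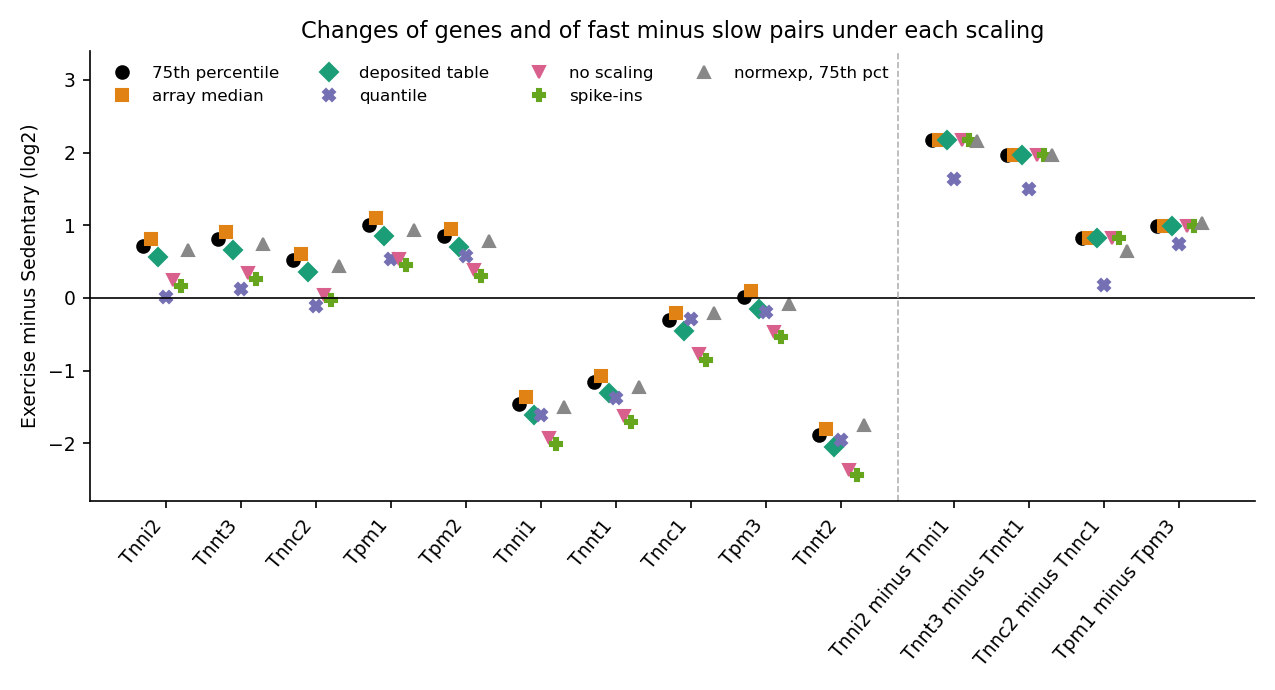
Exercise minus sedentary change on the log2 scale of the 10 genes (left of the dashed line) and of the 4 fast minus slow differences (right) under the 75th percentile scaling and 6 alternatives, 1 symbol each. The fast genes come down under quantile, spike-in and no scaling, Tnnc2 to about 0, while Tnni1, Tnnt1 and Tnnt2 stay below 0. The pair differences shift under quantile normalization and slightly with normexp, and are the same by construction under the others.

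The calls also depended on which arrays were used. Leaving out sedentary mouse 1 kept 5 members raised and gave 2 lowered, Tnni1 and Tnnt2, where 13.9% and 8.24% of all features rose and fell. Without that array each group lay in its own strip, so group and strip cannot be told apart. Leaving out exercise mouse 1, 2 or 3 or sedentary mouse 2 or 3 gave 0 members called by limma, where at most 1 of all features was called in each run. The limma adjusted p was 0.0585 to 0.103 for the 6 genes called with all arrays. In each of these runs 8 or 9 of the 10 genes had an unadjusted p under 0.05. With the strip as a block 0 members were called, where 3 of all features were, and 6 members had an unadjusted p under 0.05. The share of all features at an unadjusted p under 0.05 is not given here, so these counts are not read as particular to the members. Within the shared strip the fast genes Tnni2, Tnnt3, Tnnc2 and Tpm1 were higher than in sedentary mouse 1 by 0.44, 0.58, 0.37 and 0.67, Tpm2 by 0.69, and Tnni1 and Tnnt1 changed by -1.38 and -1.16. Sedentary mouse 1 was the sedentary mouse nearest to the exercise group in 7 of the 8 genes whose groups stood apart.

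Mice within a group differed in the slow genes, and they did so in 2 ways. Tnnc1 and a pair of Tpm3 probes, A_55_P2090205 and A_51_P462153, followed the slow myosin heavy chain Myh7. Myh7 measured 0.99, 1.96 and 3.69 in exercise and 3.95, 1.66 and 2.07 in sedentary mice, the highest values being those of exercise mouse 3 and sedentary mouse 1. These genes and probes were picked out after their values were seen, and the likeness is a description of 6 arrays.

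The first of the Tpm3 probes measured -0.07, 0.56 and 1.60 in exercise and 1.47, -0.02 and 0.41 in sedentary mice. The second measured -1.01, -0.47 and 0.27 against 0.02, -0.95 and -0.61. Both were again highest in exercise mouse 3 and sedentary mouse 1, and both had overlapping groups, with differences of 0.07 and 0.11. The Euclidean distance of the centred profile from that of Myh7 was 1.12 and 1.58 for these probes and 1.42 for Tnnc1, the smallest among the 22 member probes, and 2.48 for the brightest Tpm3 probe, whose level was nearly flat. A further, very dim Tpm3 probe was well above background on the 3 sedentary arrays and on 0 of the exercise arrays, so it passed the filter through the sedentary group alone. The difference of that probe between the groups was therefore not read.

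Tnni1 and Tnnt1 shared that pattern among the exercise mice. Both were lowest in exercise mouse 1 and highest, within the group, in exercise mouse 3, as were Tnnc1, Myh7 and the slow regulatory light chain Myl2 (3.13, 3.86 and 4.97). Among the sedentary mice they did not follow Myh7: sedentary mouse 1 exceeded the mean of the other two by 2.09 for Myh7 but by 0.001 for Tnnt1, and for Tnni1 the same contrast was -0.11. Tnnt2 went the other way, at -1.62. In this it resembled Chrng, the fetal subunit of the acetylcholine receptor that returns in denervated muscle, which measured 0.28, 2.84 and 3.12 in the sedentary mice (a contrast of -2.70) and -1.94, -1.56 and -1.11 in the exercise mice. Chrng was set beside Tnnt2 after the values were seen and was not among its 3 nearest genes in profile. Sedentary mouse 1 lay in another strip than sedentary mice 2 and 3, so mouse and strip cannot be told apart in these contrasts.

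**Figure D5:**
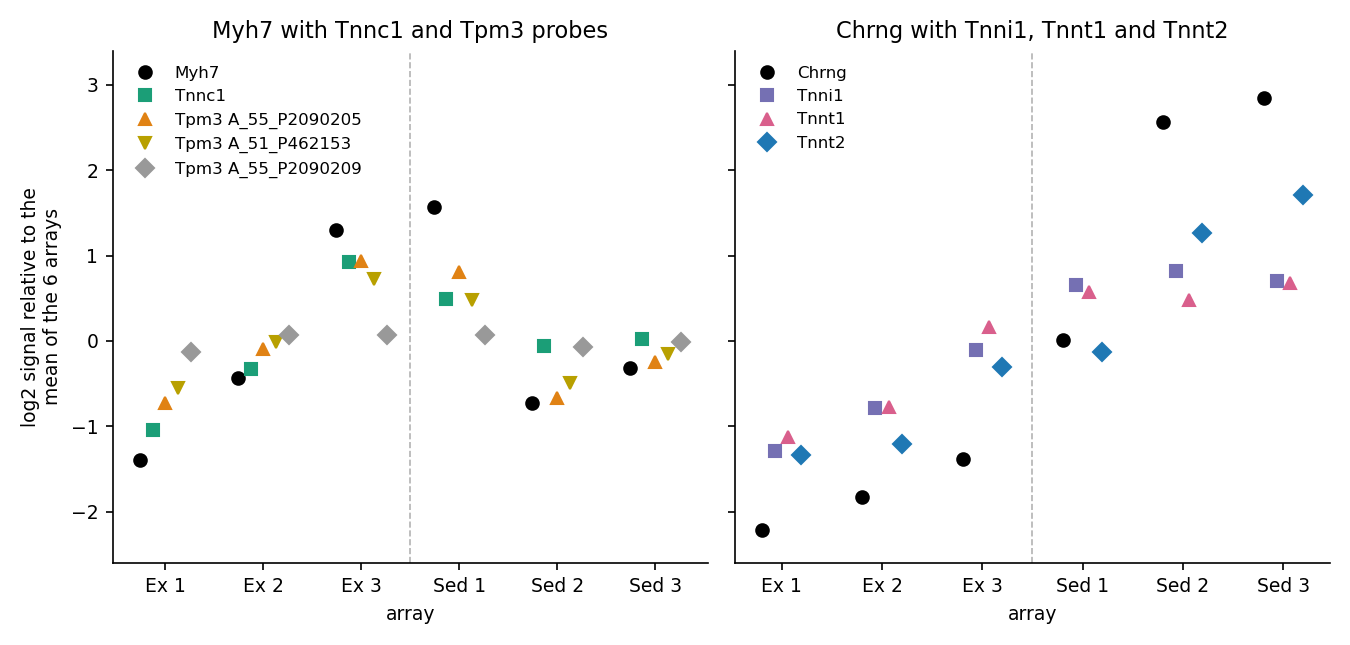
Log2 signal relative to the mean of the 6 arrays in each exercise (Ex) and sedentary (Sed) mouse, for Myh7, Tnnc1 and 3 Tpm3 probes (left) and for Chrng, Tnni1, Tnnt1 and Tnnt2 (right). Exercise mouse 3 and sedentary mouse 1 are highest on the left except for the flat Tpm3 probe, and on the right all exercise mice lie below all sedentary mice, with sedentary mouse 1 the lowest sedentary value for Chrng and Tnnt2.

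Marker lists of fibre types and of denervation were set beside the members. Of the 9 fast fibre markers other than members, 8 rose and 0 fell, with a median change of 1.21, led by Pvalb (1.67), Mybpc2 (1.42), Casq1 (1.41) and Actn3 (1.38). Against sedentary mouse 1 alone, within the shared strip, these 4 were higher by 0.88, 0.77, 0.81 and 0.87, and the median of the list was 0.77. Of the 10 slow fibre markers 1 rose, Myl3 (0.97), and 1 fell, the calcium pump Atp2a2 (-0.79), with a median of -0.40, and Myh7 was at -0.35 with an interval of -2.42 to 1.72. Of the 12 markers of denervation and immature fibres 8 fell and 1 rose, with a median of -1.33, and those that fell included Chrng (-3.62), Myh3 (-2.35, with 0.92 for a second probe) and Chrnd (-1.92). Within the shared strip the median of this list was -0.67, with Chrng at -1.82 and Chrnd at -0.87. The gene that rose was Myh8 (0.75), whose second probe gave -0.71. Their part in the differences of Tnni1, Tnnt1 and Tnnt2 was not tested, and in RNA of a whole muscle fewer fibres of a type and less RNA per fibre cannot be told apart.

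Cells other than muscle fibres were followed by 2 lists. None of the 6 fibroblast markers was called by limma, with 0 at an unadjusted p under 0.05 and a median change of -0.05, and their summed signal was 749 to 820 times the 75th percentile in exercise and 698 to 968 times in sedentary mice. Of 7 smooth muscle markers 2 fell, Myh11 (-0.95) and Lmod1 (-0.76), and 1 rose, Acta2 (1.32), whose 3 probes ranged from -0.89 to 1.32. The summed smooth muscle signal was 377 to 452 against 189 to 235. It includes the raised Acta2 probe, the brightest of the list at a mean of 8.41 in exercise and 7.09 in sedentary mice. Of the 7 markers 3 were higher and 4 lower, with a median change of -0.52. Tpm1 and Tpm2 are also expressed in smooth muscle, and the part of these cells in their rise was not tested.

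Other genes of the thin filament, its caps and the proteins that set its length were taken as a list of 36. The list also holds the titin gene Ttn and the myosin-binding protein genes Mybpc1, Mybpc2, Mybpc3 and Mybph, whose proteins belong to the thick filament. Counts of thin filament genes refer to this whole list. Some of its genes, Mybpc2 and Acta1 among them, are also on the marker lists above. Of the 36 genes, 35 were tested. Of these 10 rose and 2 fell, where 11.5% and 6.12% of all features did so, and the median change was 0.20, or 0.10 within the shared strip. Those that rose included Tmod4, the tropomodulin that caps the pointed end of the filament in skeletal muscle (1.61, and 0.80 within the strip), Mybpc2, the fast myosin-binding protein C (1.42), Kbtbd13 (1.27), Acta1, the skeletal actin (0.93), the formin Fhod1 (0.67) and the capping protein genes Capza2 (0.47) and Capzb (0.46). The genes that fell were Lmod1, a leiomodin of smooth muscle (-0.76, with 1 exercise array well above background), and Klhl40, which stabilizes leiomodin and nebulin (-0.50). Neb, the ruler of the filament, changed by -0.06 and Tpm4, a further tropomyosin, by 0.29, and neither passed.

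The genes whose profile over the 6 arrays lay nearest to a member were found among 15737 named genes by the Euclidean distance between centred values. For Tnni1 these were Il2rb (0.23), Snora81 (0.46) and Pck1 (0.46), where the median gene lay at 2.05. Il2rb and Pck1 were also among the nearest to Tnnt1, at 0.43 and 0.37, together with Aldh3b2 (0.36). Nearest to Tnnt2 were Foxa1 (0.30), Gata4 (0.52) and Sbk3 (0.56), with a median of 2.86. Nearest to the fast Tnni2 were Synpo2 (0.07), Fem1a (0.07) and Gapdh (0.07), where the median gene lay at 1.00. On the exercise arrays Il2rb never stood well above background, and a distance over 6 arrays of 2 groups is small for many genes that share the group difference.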

How the data were processed

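RNA of the quadriceps of 6 mice was labelled with a single dye and hybridized to Agilent mouse arrays, 1 per mouse. The authors deposited a scanner file per array, read with Feature Extraction 12.1.0.3 per the file headers, in which each spot has a processed intensity on a linear scale after background subtraction and spatial detrending. The authors also deposited a table of the same intensity multiplied by 1 factor per array (1.33 to 1.88), whose making is not given in the sources used here.

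Spots flagged as controls or outliers were removed, replicate spots of a probe were averaged, and the log2 of the deposited intensity minus the 75th percentile of its array was taken. A probe was kept (32726 of 56605) where 3 or more arrays flagged it as well above background. Since the scanner files name no genes, probes were matched by transcript record to a RefSeq table of GRCm38, which named 34566 of them, and 15745 of the 25005 features tested had a name. The array design is on an older build, so coordinates are given for RefSeq promoter windows only. The brightest probe stood for a gene. Groups were fitted with limma 3.58.1 in R 4.3.3 without covariates (two-sided, Benjamini-Hochberg over all features), and the script was tested on simulated data. Fast minus slow differences were compared by exact permutation. The members, marker lists and tests were chosen with earlier results of these data known. The named genes are all members and all their probes, the thin filament genes called (at most the 8 largest rises and falls), the 3 genes nearest in profile to Tnni1, Tnni2, Tnnt1 and Tnnt2, and at most 4 called genes of a marker list. Other genes named were chosen after their values were seen. The labels number 3 replicates per group, and the small number of mice limits the precision. The alternatives were other scalings, background corrections, filters and probe choices, the deposited table, leaving out each array, and the replicate number or the strip as a block.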

Additional observations from a re-analysis of the deposited data

How the results depend on the processing

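The changes of Tnni1, Tnnt1, Tnnt2, Tnni2, Tnnt3, Tpm1 and Tpm2 and of the 4 fast minus slow differences kept their direction under every alternative run, and Tnnc1, Tnnc2 and Tpm3 did not. For the fast minus slow differences this was fixed in advance with the array median, no scaling, spike-ins and the deposited table, which multiply each array by 1 factor. With all arrays 5 members rose and 1 fell, where 11.5% and 6.12% of all features did so. Under quantile normalization 2 rose and 2 fell, where 7.46% and 5.45% of all features did so, and Tnnc2 changed by -0.11 and Tpm3 by -0.20. Without scaling 3 rose and 4 fell, with Tpm3 at -0.46, where 2.47% of all features rose and 45.1% fell. With spike-in scaling 1 rose and 4 fell, where 1.42% and 45.8% of all features did so, with Tnnc2 at -0.032 and Tpm3 at -0.54. Members that fell numbered 2 with the array median (3.50% of all features fell) and 2 with a trended, robust limma fit (7.95%). They numbered 3 with normexp (8.05% of all features fell) and 3 with probes well above background on all arrays (7.80%). With the values as deposited by the authors, 4 members rose and 3 fell, where 4.69% and 12.8% of all features did so. Tnnc2 (0.36, limma adjusted p of 0.0564) was no longer called in that run. Tpm3 changed by -0.087 with normexp, -0.075 with the mean of its probes, -0.15 in the deposited table and -0.062 within the strip of both groups or with the strip as a block. Within that strip Tpm1 minus Tpm3 was 0.73. When every probe of a gene had to be called, a rule chosen after seeing the data, 4 members rose and 1 fell. The share of all features that met this rule is not given here. The cause of these shifts was not tested.

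Leaving out each array in turn, 0 to 5 members rose and 0 to 2 fell, Tnnc1 ranged from -0.84 to 0.15 and Tpm3 from -0.0225 to 0.075. The counts were 0 in both directions except without sedentary mouse 1. In that run 13.9% of all features rose and 8.24% fell, and group and strip cannot be told apart. With each of the 5 other arrays left out, at most 1 of all features was called. Of the thin filament list 10 rose and 2 fell with all arrays, where 11.5% and 6.12% of all features did so. Those that rose numbered 4 under quantile normalization (7.46% of all features rose), 5 without scaling (2.47%), 4 with spike-ins (1.42%) and 5 in the deposited table (4.69%). Those that fell numbered 13 without scaling (45.1% of all features fell), 13 with spike-ins (45.8%) and 4 in the deposited table (12.8%). They numbered 1 with the probe of largest SD (5.60%) and 0 with the array median (3.50%). Leaving out an array gave 0 to 9 that rose and 0 to 2 that fell.

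The labels number the replicates within each group and do not say whether the numbers pair the mice. Deviations from the group means of same-numbered mice correlated at 0.015, 0.085 and 0.036, and those of other combinations at -0.107 to 0.075. Exercise mouse 1 correlated best with sedentary mouse 3. With 3 mice per group these values cannot settle whether mice were paired. With the replicate block 0 members rose and 0 fell by limma (adjusted p of 0.0606 to 0.0656 for the 6 called without the block, 8 of 10 at an unadjusted p under 0.05), 0 thin filament genes rose and 0 fell, and 0 of all features were called. With the strip as a block the members and the thin filament genes gave 0 rises and 0 falls, and 3 of all features were called. At an unadjusted p under 0.05 there were 6 members and 9 thin filament genes. For neither block is the share of all features at an unadjusted p under 0.05 given here. With 3 mice per group the spread within the exercise group limits what can be said of Tnnc1 and the slow genes.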
